A study of Mus musculus with 12 samples.

Results

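A total of 881 of the 11022 genes in a table of UMI counts lay outside the range of both ordinary states of a fat cell line in all 6 libraries grown in cancer cell medium. The cells were 3T3-L1, an established mouse line of preadipocytes that store fat when given hormonal inducers. Members were chosen by the values themselves: a gene was taken when its 6 levels with conditioned medium all lay above, or all below, its 6 levels in regularly differentiated and undifferentiated cells. By that rule 599 genes (5.43% of the table) lay above and 282 genes (2.56%) lay below. These counts and the levels behind them are a description of the choice and carry no test.

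There were 4 groups of 3 libraries, all from 3T3-L1 cells labelled wild-type. The KO CM group differentiated in conditioned medium (CM) from p53 knockout WEP cells, a breast cancer line. The WT CM group had CM from WEP cells with intact p53. The 3T3-L1 cells themselves carried no p53 change in either group. At each step 1 part of CM was mixed with 1 part of differentiation medium. The regular group had differentiation medium without CM. Its inducers were rosiglitazone (2 µM), dexamethasone (1 µM), insulin (1 µg/mL) and IBMX (0.5 mM) for 2 days, with 10% fetal bovine serum, and then insulin for a further 2 days. Inducers were thus diluted with both kinds of CM and not in the regular group, and dilution cannot be told apart from what the cancer cells released. The undifferentiated group had 10% calf serum and no inducers. Whether replicates were separate cultures is not stated in the labels, and the p-values given here cover only the spread between libraries, which may be technical.

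Adipocyte differentiation moves a preadipocyte from a fibroblast-like state, rich in matrix and dividing, to a state rich in lipid enzymes, under the control of Pparg and C/EBP factors. A gene whose CM level lies between its undifferentiated and its regular level can be placed between these states, and the genes described here lie outside both. No stage in between was sampled. A gene that passes through a high or low level on the way cannot be told apart from one off this course. Cytokines of the interleukin-6 family bind receptors that share the subunit encoded by Il6st, activate the transcription factor STAT3, and in liver and fat induce the acute phase proteins, secreted proteins that bind iron, haem, lipids and proteases.

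Levels are counts per 1000000 UMIs (CPM) on library sizes scaled by the trimmed mean of M values (TMM). Libraries held 987496 to 2589045 UMIs. Libraries of 1 group differed by more than sampling noise, and WT CM replicate 3 stood farthest from its group: chi-square per gene was 5.25 and 4.98 against replicates 1 and 2, which differed from each other by 1.62. Without it, 725 genes lay above and 358 below. Scaling mattered for the counts. Scaling by total counts moved the median gene by -0.15 (log2, CM over others), and then 416 genes lay above and 513 below, and members above made up 44.8% of all members against 68.0% with TMM. With DESeq2 size factors 533 and 345 genes did. Of the members named with TMM, 416 above and 281 below held under all 3 scalings.

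The 6 adipocyte markers checked (Adipoq, Fabp4, Plin1, Cidec, Pparg and Cebpa) summed to 8341 to 9491 CPM with KO CM, 16430 to 17040 CPM with WT CM, 25180 to 27350 CPM after regular differentiation and 97.1 to 114.6 CPM in undifferentiated cells. None of these 6 was a member. Preadipocyte markers (5 of 5 in the table) summed to 1462 to 1572 CPM with KO CM, 1121 to 1154 CPM with WT CM, 191 to 252.9 CPM after regular differentiation and 763.8 to 830.3 CPM in undifferentiated cells. Of these 5, Pdgfra and Ly6a were members above, so the sum holds genes that the rule chose. A longer list had 18 preadipocyte and progenitor markers in the table. Its median log2 ratio of CM was 0.96 against regular and -0.24 against undifferentiated cells, so the median of that list stood between the ordinary states. Other cell types left little trace: 3 of 9 epithelial markers were in the table and summed to at most 56.1 CPM in any library, 3 of 8 macrophage and leukocyte markers to at most 18.8 CPM, and none of 6 endothelial markers was in the table. In bulk RNA, fewer cells of a kind and less RNA per cell cannot be told apart.

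Genes above the range were led by secreted proteins of the acute phase. The gap of a gene is the log2 ratio of its lowest CM level to its highest other level, each plus 1 CPM, and the median gap of the 599 genes was 0.29. At least a 2-fold gap was held by 79 of them and at least a 4-fold gap by 21. Serpina3n, which encodes a secreted inhibitor of serine proteases (chromosome 12, 104406729 to 104414329, plus strand), had the largest gap, 4.46. It stood at 1759, 1887 and 1669 CPM with KO CM and 1667, 1615 and 1441 CPM with WT CM, against 61.2, 64.3 and 57.8 CPM after regular differentiation and 6.24, 1.42 and 5.65 CPM in undifferentiated cells. Its lowest CM library was thus far above every regular library, and regular libraries above every undifferentiated one. Saa3, an acute phase apolipoprotein (chromosome 7, 46711998 to 46715700, minus strand), was at 802, 938 and 839 CPM with KO CM and 96.1, 104 and 78.9 CPM with WT CM, against 2.74, 1.17 and 0.596 CPM after regular differentiation and 1.13, 0.708 and 0 CPM in undifferentiated cells. The KO CM libraries were highest, the WT CM libraries lay well below them, and both ordinary states were near the limit of detection. Lcn2 encodes a protein that withholds iron from bacteria by binding their siderophores. Its levels were 1118, 1562 and 984 CPM with KO CM and 419, 439 and 422 CPM with WT CM, against 31.1, 31.96 and 31.01 CPM after regular differentiation and 4.54, 4.96 and 4.11 CPM in undifferentiated cells. No groups overlapped, and the order ran from KO CM through WT CM and regular to undifferentiated cells.

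**Figure D1:**
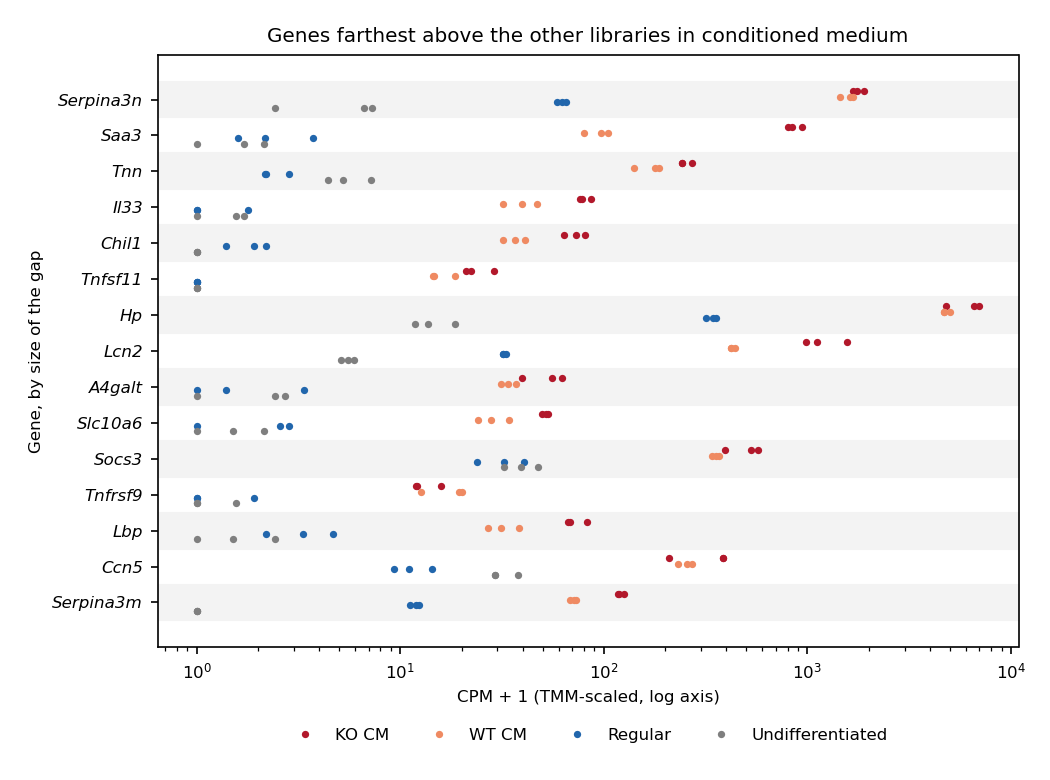
Levels of the 15 genes with the largest gaps above, 1 row per gene, as CPM plus 1 on a log axis, with 3 points per group for KO CM, WT CM, regular and undifferentiated libraries. All 6 CM points of Serpina3n lie at 1441 CPM or more and its other points at 64.3 CPM or less, and no CM point of any gene shown overlaps the others, as the rule requires.

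The stretches upstream of Saa3, Tnn, Socs3 and the complement gene C3 are shown as examples of members above that hold matches to short motifs. They come from the 250 bases before the RefSeq start (GRCm38.p6), ending where GENCODE M21 places an exon of the gene, and are written 5′ to 3′ on the gene's strand. Capitals mark motif matches. They are TTGCNNAA, a C/EBP-type motif, in C3 and as the first match in Tnn, and the same motif on the opposite strand in Saa3. The second match in Tnn is an NF-kappaB-type motif on the opposite strand (GGGA and TTTCC, 1 base apart). Socs3 holds TTCNNNGAA, a STAT-type motif.
Saa3, chr7:46715701-46715926, minus strand: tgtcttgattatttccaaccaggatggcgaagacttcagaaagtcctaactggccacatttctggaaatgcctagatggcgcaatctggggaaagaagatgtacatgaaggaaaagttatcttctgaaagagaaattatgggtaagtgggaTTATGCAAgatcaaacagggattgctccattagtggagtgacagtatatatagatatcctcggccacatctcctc
Tnn, chr1:160153581-160153825, minus strand: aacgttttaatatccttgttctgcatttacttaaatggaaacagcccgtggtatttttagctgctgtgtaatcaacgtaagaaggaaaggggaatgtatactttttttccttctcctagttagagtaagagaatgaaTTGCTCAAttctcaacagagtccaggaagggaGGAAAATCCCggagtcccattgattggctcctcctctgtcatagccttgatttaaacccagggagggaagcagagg
Socs3, chr11:117969452-117969616, minus strand: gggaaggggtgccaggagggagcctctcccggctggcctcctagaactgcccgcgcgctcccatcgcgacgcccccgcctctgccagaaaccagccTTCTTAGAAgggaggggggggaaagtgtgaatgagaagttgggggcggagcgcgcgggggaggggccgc
C3, chr17:57228137-57228386, minus strand: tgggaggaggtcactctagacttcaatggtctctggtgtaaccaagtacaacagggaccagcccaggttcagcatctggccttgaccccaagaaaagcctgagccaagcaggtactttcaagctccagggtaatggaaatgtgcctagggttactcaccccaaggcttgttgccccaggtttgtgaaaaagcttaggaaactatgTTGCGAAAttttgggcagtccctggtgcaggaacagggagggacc

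Motif matches over all members are given as shares of RefSeq promoters of 250 bases before to 50 after a start, on both strands. The 599 genes above had 601 promoters for 460 genes, those below had 256 for 224 genes, and the table as a whole had 11249 for 8808 genes. TTGCNNAA was found in 11.3% of promoters of genes above, 5.47% of those below and 8.33% of all. TTCNNNGAA was found in 8.65%, 7.03% and 6.57% in the same order, and TGANTCA, an AP-1-type motif, in 6.49%, 3.52% and 5.05%. The NF-kappaB-type motif was rare, in 0.666%, 0.391% and 0.418%. Among the 79 genes with at least a 2-fold gap, whose 79 promoters covered 56 genes, the shares were 22.8% for TTGCNNAA, 16.5% for TTCNNNGAA, 15.2% for TGANTCA and 1.27% for the NF-kappaB-type motif. The motifs do not contain one another, though matches may overlap. Serpina3n, Chil1, Tnfsf11, Slc10a6, Bcl3, Pim1, Junb and Stat3, all members above, held none of the 4 motifs in their windows.

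A4galt, which makes the glycolipid Gb3, and Slc10a6, a carrier of sulphated steroids, belong to no list yet had gaps among the 15 largest. A4galt stood at 54.5, 61.2 and 38.4 CPM with KO CM and 36.1, 32.8 and 30.4 CPM with WT CM, against 0, 0.390 and 2.39 CPM after regular differentiation and 1.70, 1.42 and 0 CPM in undifferentiated cells. Slc10a6 stood at 48.5, 52.3 and 51.0 CPM with KO CM and 33.4, 23.2 and 26.9 CPM with WT CM, against 1.83, 1.56 and 0 CPM after regular differentiation and 1.13, 0 and 0.514 CPM in undifferentiated cells. For both, regular and undifferentiated libraries overlapped near 0.

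Of 22 acute phase and iron genes in the table, 15 lay above and none below (5.43% and 2.56% of all genes did). Counts that other lists gave with total counts stand against 416 above and 513 below of the 11022 genes. The median log2 ratio of the list was 2.18 against regular and 2.90 against undifferentiated cells, where the medians of all genes were 0 and 0.08. Hp, the haemoglobin scavenger haptoglobin, was the most abundant of the leading genes, with 4800.3, 6584 and 6992 CPM with KO CM and 4661, 4696 and 5010.1 CPM with WT CM, against 316, 342 and 355 CPM after regular differentiation and 17.6, 12.8 and 10.8 CPM in undifferentiated cells. The lowest CM library had more than any regular library, whose 3 values lay close together. Chil1, a chitinase-like secreted protein, reached 80.3, 72.4 and 62.8 CPM with KO CM and 40.2, 30.9 and 35.7 CPM with WT CM, against at most 1.19 CPM in any other library. Lbp, which binds bacterial lipopolysaccharide and was not on the list, reached 25.9 to 81.3 CPM over the 6 CM libraries, against 0 to 3.66 CPM over the 6 others. Cp, the copper-carrying ferroxidase ceruloplasmin, averaged 264 ± 97.5 CPM with KO CM and 224 ± 45.7 CPM with WT CM, 6.78-fold and 5.76-fold the regular mean. Slc39a14, a zinc and iron importer, stood at 131 to 225 CPM over the 6 CM libraries, against 23.9 to 48.2 CPM over the 6 others. Fth1, the heavy chain of the iron store ferritin, lay closer to the edge at 8920.0 to 14232 CPM over the 6 CM libraries, against 5753 to 6961 CPM over the 6 others.

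The Serpina3 inhibitors lie side by side in the genome but differ widely in level. Serpina3g, Serpina3h, Serpina3i, Serpina3m, Serpina3k and Serpina3n, all members above, start between 104236245 and 104406729 on chromosome 12. Serpina3h was at 77.3, 77.9 and 73.8 CPM with KO CM and 19.8, 25.1 and 24.7 CPM with WT CM, against 0, 1.17 and 1.19 CPM after regular differentiation and 4.54, 1.42 and 1.54 CPM in undifferentiated cells. Serpina3m was at 66.95 to 124 CPM over the 6 CM libraries, against 0 to 11.3 CPM over the 6 others, with no count in undifferentiated cells. The copies are similar enough that 3′ reads may be assigned to the wrong one, so the level of each is uncertain. The same holds for C1ra and C1rb, C1s1 and C1s2, the Ifi200 genes, H2-K1 and Fth1.

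Complement genes were members in 8 of 14 cases, all above (57.1%, against 5.43% of all genes). C1ra and C1s1 encode the proteases that start the classical pathway. C1s1 stood at 435, 439.8 and 406 CPM with KO CM and 258, 250.4 and 219.9 CPM with WT CM, against 34.7, 53.8 and 50.1 CPM after regular differentiation and 73.8, 55.3 and 77.6 CPM in undifferentiated cells. C1ra stood at 348, 338 and 319 CPM with KO CM and 192, 179.6 and 217 CPM with WT CM, against 40.2, 51.1 and 36.98 CPM after regular differentiation and 45.4, 56.7 and 60.6 CPM in undifferentiated cells. With C1rl, C1rb and C1s2 they form a run of 5 members that start between 124493113 and 124624625 on chromosome 6. C4b, which the C1 proteases cleave, differed from C1s1 in its ordinary states: it was at 115 to 164 CPM over the 6 CM libraries, against 0 to 33.9 CPM over the 6 others, and undifferentiated cells had at most 0.708 CPM. Clu, a secreted chaperone that inhibits the terminal complex, was at 299 to 632 CPM over the 6 CM libraries, against 18.2 to 137 CPM over the 6 others. C3, the central component, whose upstream stretch is given above, was abundant and near the edge of the rule, at 2207 to 2409 CPM over the 6 CM libraries, against 38.3 to 1948 CPM over the 6 others.

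Cytokine genes gave some of the widest gaps at low levels. Il33 encodes an alarmin released from damaged cells. It stood at 85.2, 76.8 and 75.3 CPM with KO CM and 38.9, 30.9 and 45.8 CPM with WT CM, against 0, 0.780 and 0 CPM after regular differentiation and 0.567, 0.708 and 0 CPM in undifferentiated cells. Every CM library stood far above the others, in which the regular and the undifferentiated group held 2 counts each. Tnfsf11 encodes RANKL, which drives osteoclast formation, and had no count in any of the 6 other libraries. It was at 27.7, 20.04 and 21.2 CPM with KO CM and 13.6, 13.5 and 17.6 CPM with WT CM, at least 80.1-fold and 52.0-fold higher than a floor of 3 counts over those 6 libraries (0.287 CPM, counting error only). Il1rn, the interleukin-1 receptor antagonist, did not pass the filter on low counts and stood at 4.71 to 8.37 CPM over the 6 CM libraries, against 0 to 0.596 CPM over the 6 others. Tnfsf9, the ligand of 4-1BB, stood at 23.2 to 42.6 CPM over the 6 CM libraries, against 5.48 to 14.9 CPM over the 6 others, and the gene of its receptor, Tnfrsf9, at 10.98 to 19.1 CPM over the 6 CM libraries, against 0 to 0.914 CPM over the 6 others. Of 34 cytokine and growth factor genes, 7 lay above (20.6%, against 5.43% of all genes) and none below. Of 17 chemokine genes, 2 lay above (11.8%, against 5.43% of all genes) and none below. Ccl9 stood at 17.2 to 36.7 CPM over the 6 CM libraries, against 2.73 to 10.6 CPM over the 6 others. Cxcl12 stood at 1235 to 2299 CPM over the 6 CM libraries, against 577 to 1079 CPM over the 6 others. With total counts Cxcl12 did not lie above.

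Receptors, transducers and feedback genes of the interleukin-6 family were members in 11 of 25 cases, again all above (44%, against 5.43% of all genes). Socs3 encodes the feedback inhibitor that binds the shared receptor subunit and its kinases (chromosome 11, 117966079 to 117970047, minus strand). It was at 394, 569 and 528 CPM with KO CM and 340.1, 366 and 354 CPM with WT CM, against 22.8, 31.2 and 39.4 CPM after regular differentiation and 46.5, 31.2 and 38.03 CPM in undifferentiated cells. The regular and undifferentiated libraries overlapped, and all 6 CM libraries stood above both. Osmr, the oncostatin M receptor subunit, was at 249.7, 281 and 231 CPM with KO CM and 174, 161 and 218 CPM with WT CM, against 11.9, 16.8 and 17.3 CPM after regular differentiation and 48.2, 46.8 and 47.8 CPM in undifferentiated cells. Here regular libraries were lowest, and CM libraries passed the undifferentiated level. Il6st stood at 195 to 369 CPM over the 6 CM libraries, against 44.8 to 144 CPM over the 6 others, and Stat3 at 158 to 204 CPM over the 6 CM libraries, against 83.8 to 99.6 CPM over the 6 others. Pim1, a kinase induced by STAT signals, was at 42.3 to 97.98 CPM over the 6 CM libraries, against 6.38 to 11.9 CPM over the 6 others. Il1r1, the interleukin-1 receptor, was at 160.3 to 279 CPM over the 6 CM libraries, against 43.9 to 53.9 CPM over the 6 others. The list was written with earlier results of these data known, so its count does not stand as separate evidence of a direction.

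Among NF-kappaB response genes, 8 of 20 lay above (40%, against 5.43% of all genes) and none below. With total counts 5 lay above. Bcl3, a nuclear cofactor of p50 and p52, was at 90.2, 99.1 and 114 CPM with KO CM and 96.8, 104 and 72.3 CPM with WT CM, against 15.5, 14.03 and 5.96 CPM after regular differentiation and 18.2, 19.8 and 20.6 CPM in undifferentiated cells. Regular libraries were lowest and did not overlap the undifferentiated ones. Cd14, the lipopolysaccharide co-receptor, was at 39.2 to 89.4 CPM over the 6 CM libraries, against 9.92 to 20.3 CPM over the 6 others, and Nfkbiz, a nuclear inhibitor-like cofactor, at 57.3 to 106 CPM over the 6 CM libraries, against 22.6 to 31.1 CPM over the 6 others. Of 30 AP-1, immediate early and heat shock genes, 10 lay above and 2 below (33.3% and 6.67%, against 5.43% and 2.56% of all genes). Junb was at 1253, 1505 and 1354 CPM with KO CM and 973, 1010.1 and 825 CPM with WT CM, against 256, 333 and 341 CPM after regular differentiation and 285, 239 and 267 CPM in undifferentiated cells. Ier3 was at 173 to 332 CPM over the 6 CM libraries, against 44.8 to 78.6 CPM over the 6 others and Jun at 237 to 331 CPM over the 6 CM libraries, against 93.04 to 114 CPM over the 6 others. Below were the chaperone gene Hsph1 (44.6 to 67.6 CPM over the 6 CM libraries, against 76.01 to 117 CPM over the 6 others) and Myc (81.3 to 94.7 CPM over the 6 CM libraries, against 104 to 128 CPM over the 6 others). Of 18 glucocorticoid response genes 7 lay above (38.9%, against 5.43% of all genes). Among them were Angptl4, an inhibitor of lipoprotein lipase (1841 to 2406 CPM over the 6 CM libraries, against 165 to 1056 CPM over the 6 others), Errfi1 (97.9 to 129 CPM over the 6 CM libraries, against 22.7 to 60.8 CPM over the 6 others) and Mt2, a metal-binding metallothionein (1539 to 2202 CPM over the 6 CM libraries, against 492 to 1136 CPM over the 6 others).

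**Figure D2:**
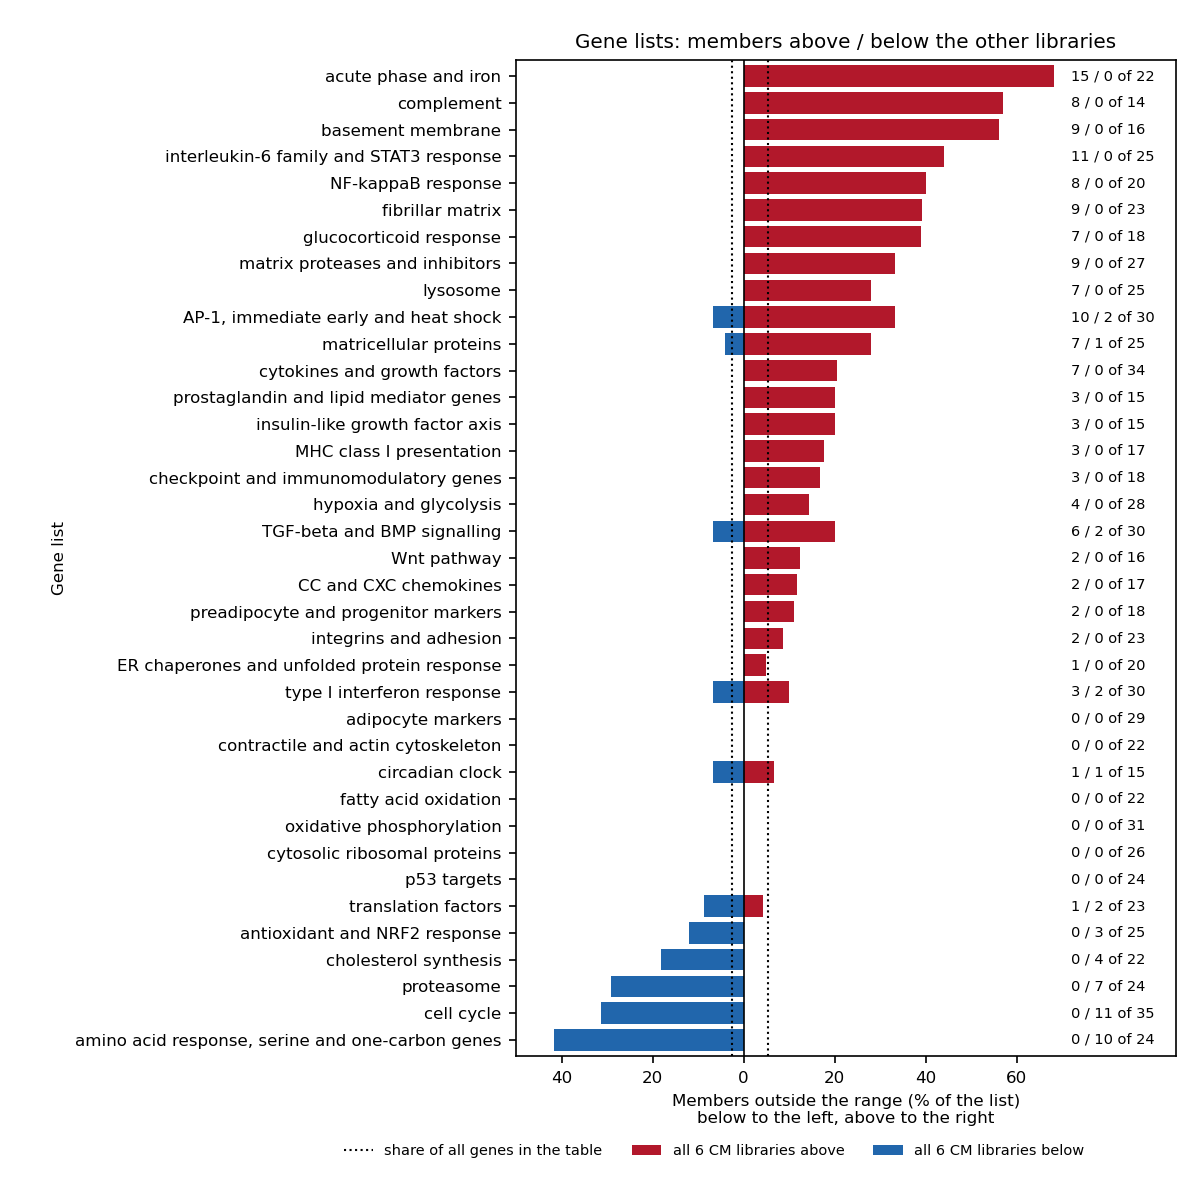
Share of each gene list that lay above (right, red) or below (left, blue) the other 6 libraries, for the lists with at least 10 members in the table. Counts above / below and the list size stand at the right, and dotted lines mark 5.43% above and 2.56% below over all genes. Acute phase and complement lists reach farthest right (15 of 22 and 8 of 14) and the amino acid list farthest left (10 of 24), and these shares come from the values that chose the genes.

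Matrix genes were divided between those inside and those outside the range. Matricellular proteins had 7 members above and 1 below of 25 (28% and 4%, against 5.43% and 2.56% of all genes). Tnn, a tenascin of bone and tumour stroma (chromosome 1, 160085029 to 160153580, minus strand), was at 241, 240.5 and 269 CPM with KO CM and 177, 139.7 and 186 CPM with WT CM, against 1.83, 1.17 and 1.19 CPM after regular differentiation and 3.40, 4.25 and 6.17 CPM in undifferentiated cells. Undifferentiated libraries held more than regular ones, and both were far under the CM libraries. Spp1, the secreted phosphoprotein osteopontin, was among the most abundant members, at 6120.0, 5681 and 5346 CPM with KO CM and 3649, 3728 and 4164 CPM with WT CM, against 91.4, 87.3 and 82.9 CPM after regular differentiation and 1373, 1264 and 1372 CPM in undifferentiated cells. Its mean was 4.28-fold with KO CM and 2.88-fold with WT CM over undifferentiated cells, and 65.5-fold and 44.1-fold over regular cells. Ccn5, a matricellular protein of the CCN family, stood at 208 to 384 CPM over the 6 CM libraries, against 8.35 to 36.9 CPM over the 6 others. Tgfbi was the member below, at 92.1 to 115 CPM over the 6 CM libraries, against 121 to 144 CPM over the 6 others.

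Of 23 fibrillar matrix genes 9 lay above (39.1%, against 5.43% of all genes), but only 4 did with total counts. Dcn, the collagen-binding proteoglycan decorin, had the largest gap of the list and a wide spread with KO CM, at 1412, 1160.2 and 504 CPM, against 720.5, 901 and 957 CPM with WT CM and 57.7 to 136 CPM in the others. The 3 collagen VI chain genes Col6a1 (2359 to 2658 CPM over the 6 CM libraries, against 1127 to 1935 CPM over the 6 others), Col6a2 and Col6a3 lay nearer to the range. Basement membrane genes were members in 9 of 16 cases, all above (56.2%), and 7 with total counts. Col18a1, the source of endostatin, was at 467, 504 and 483 CPM with KO CM and 404, 411 and 438 CPM with WT CM, against 184, 188 and 205 CPM after regular differentiation and 179, 218 and 220.0 CPM in undifferentiated cells. Both ordinary states overlapped there. Nid1, which links laminin to collagen IV, was at 457, 498 and 518 CPM with KO CM and 455, 527 and 499 CPM with WT CM, against 281, 278 and 274 CPM after regular differentiation and 166, 156 and 140.3 CPM in undifferentiated cells, with regular cells between. Lamc1, a laminin chain, was at 162 to 220.0 CPM over the 6 CM libraries, against 99.9 to 117 CPM over the 6 others, and Nid2, the paralogue of Nid1, at 58.5 to 84.2 CPM over the 6 CM libraries, against 4.96 to 40.2 CPM over the 6 others.

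Matrix proteases and inhibitors had 9 members of 27, all above (33.3%, against 5.43% of all genes). Mmp13, collagenase 3, was rare at 4.71 to 13.2 CPM over the 6 CM libraries, against 0 to 1.70 CPM over the 6 others. Mmp11, stromelysin 3, was at 195 to 258 CPM over the 6 CM libraries, against 68.9 to 119 CPM over the 6 others, and Adamts2, which trims procollagen, at 12.8 to 27.7 CPM over the 6 CM libraries, against 1.83 to 8.35 CPM over the 6 others. None of 22 contractile and actin genes was a member. Of 18 preadipocyte and progenitor markers, 2 lay above (11.1%, against 5.43% of all genes) and none below. Pdgfra, a growth factor receptor, was at 331, 279 and 282 CPM with KO CM and 199, 195 and 222 CPM with WT CM, against 51.2, 47.2 and 63.2 CPM after regular differentiation and 62.4, 55.3 and 52.4 CPM in undifferentiated cells. Ly6a, the surface marker Sca-1, was at 505 to 679 CPM over the 6 CM libraries, against 70.4 to 298 CPM over the 6 others. The regular and undifferentiated levels of Pdgfra overlapped, and all 6 CM libraries exceeded both. Lysosomal genes had 7 members above of 25 (28%), and 5 with total counts. The cysteine protease gene Lgmn led them at 285 to 455 CPM over the 6 CM libraries, against 58.5 to 146 CPM over the 6 others. Ctsb, cathepsin B, was at 21.2 to 30.1 CPM over the 6 CM libraries, against 2.57 to 11.7 CPM over the 6 others, Ctsz, cathepsin Z, at 68.2 to 86.3 CPM over the 6 CM libraries, against 30.5 to 46.5 CPM over the 6 others, and Grn, the lysosomal and secreted progranulin, at 734 to 1007 CPM over the 6 CM libraries, against 469.8 to 628 CPM over the 6 others.

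The other lists held 1 to 6 members above, where they held any, against 5.43% of all genes. For TGF-beta and BMP signalling there were 6 of 30, among them the co-receptor gene Tgfbr3 (161 to 207 CPM over the 6 CM libraries, against 59.01 to 90.5 CPM over the 6 others) and the BMP antagonist gene Grem1 (61.8 to 227 CPM over the 6 CM libraries, against 0.780 to 56.7 CPM over the 6 others), with 4 under total counts, where Grem1 was lost. Prostaglandin genes had 3 of 15, with Ptges, a prostaglandin E synthase, at 91.2 to 129 CPM over the 6 CM libraries, against 24.8 to 56.5 CPM over the 6 others. Insulin-like growth factor genes had 3 of 15, with Igfbp4 at 889.7 to 1358 CPM over the 6 CM libraries, against 203 to 590.4 CPM over the 6 others and Igfbp3, the main carrier of IGF in blood, at 7.73 to 16.5 CPM over the 6 CM libraries, against 1.42 to 5.65 CPM over the 6 others. MHC class I presentation had 3 of 17, among them Psmb8, an immunoproteasome subunit (19.1 to 32.8 CPM over the 6 CM libraries, against 9.74 to 15.9 CPM over the 6 others), and checkpoint genes 3 of 18. Hypoxia and glycolysis had 4 of 28, or 2 with total counts, led by the vasodilator peptide gene Adm (66.1 to 95.7 CPM over the 6 CM libraries, against 15.2 to 34.9 CPM over the 6 others). Integrins and adhesion had 2 of 23, with Cdh13, a receptor of adiponectin, at 107 to 132 CPM over the 6 CM libraries, against 22.8 to 38.3 CPM over the 6 others. The Wnt list had 2 of 16 and none with total counts. The interferon list was split, with 3 of 30 above, led by Ifi204 (153 to 250.3 CPM over the 6 CM libraries, against 45.7 to 99.9 CPM over the 6 others), and 2 below. The remaining lists had at most 1 member above: Calr for ER chaperones, Eef2 for translation factors, Nfil3 for the clock (none with total counts), Krt7 for epithelial and Notch3 for endothelial and pericyte markers.

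Genes below the range were fewer and nearer to it, with a median gap of 0.11 and a largest gap of 1.21. A gap of at least 2-fold was held by 5 of the 282. For these, the gap is the log2 ratio of the lowest other level to the highest CM level, each plus 1 CPM. Pcolce2, an enhancer of procollagen trimming, had the largest gap and was rare, at 2.97, 2.23 and 0.785 CPM with KO CM and 1.36, 1.93 and 1.32 CPM with WT CM, against 8.23, 8.19 and 11.3 CPM after regular differentiation and 13.1, 8.50 and 8.22 CPM in undifferentiated cells. Fmod, the collagen-binding proteoglycan fibromodulin, was at 4.95, 6.68 and 10.98 CPM with KO CM and 12.95, 10.3 and 12.3 CPM with WT CM, against 30.2, 44.4 and 36.98 CPM after regular differentiation and 48.8, 51.7 and 53.97 CPM in undifferentiated cells. Abcc4, a pump that exports cyclic nucleotides, was at 2.97, 1.11 and 7.85 CPM with KO CM and 5.45, 7.08 and 6.17 CPM with WT CM, against 19.2, 18.7 and 25.6 CPM after regular differentiation and 22.1, 24.8 and 22.6 CPM in undifferentiated cells. Regular and undifferentiated levels of Pcolce2 and Abcc4 overlapped, those of Fmod did not, and the CM libraries lay under both. Angptl6, a secreted angiopoietin-like protein, was at 18.8, 15.6 and 18.05 CPM with KO CM and 19.8, 19.3 and 17.2 CPM with WT CM, against 35.6, 35.9 and 33.4 CPM after regular differentiation and 36.9, 52.4 and 37.5 CPM in undifferentiated cells. Mxd3, a repressor that pairs with MAX, was at 0 to 2.64 CPM over the 6 CM libraries, against 5.85 to 20.5 CPM over the 6 others, Tmem238 at 0.785 to 3.08 CPM over the 6 CM libraries, against 7.20 to 13.7 CPM over the 6 others, and Krt15, a keratin, at 0 to 1.36 CPM over the 6 CM libraries, against 2.74 to 14.8 CPM over the 6 others. At these levels 1 CPM is 1 to 3 counts in a library.

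**Figure D3:**
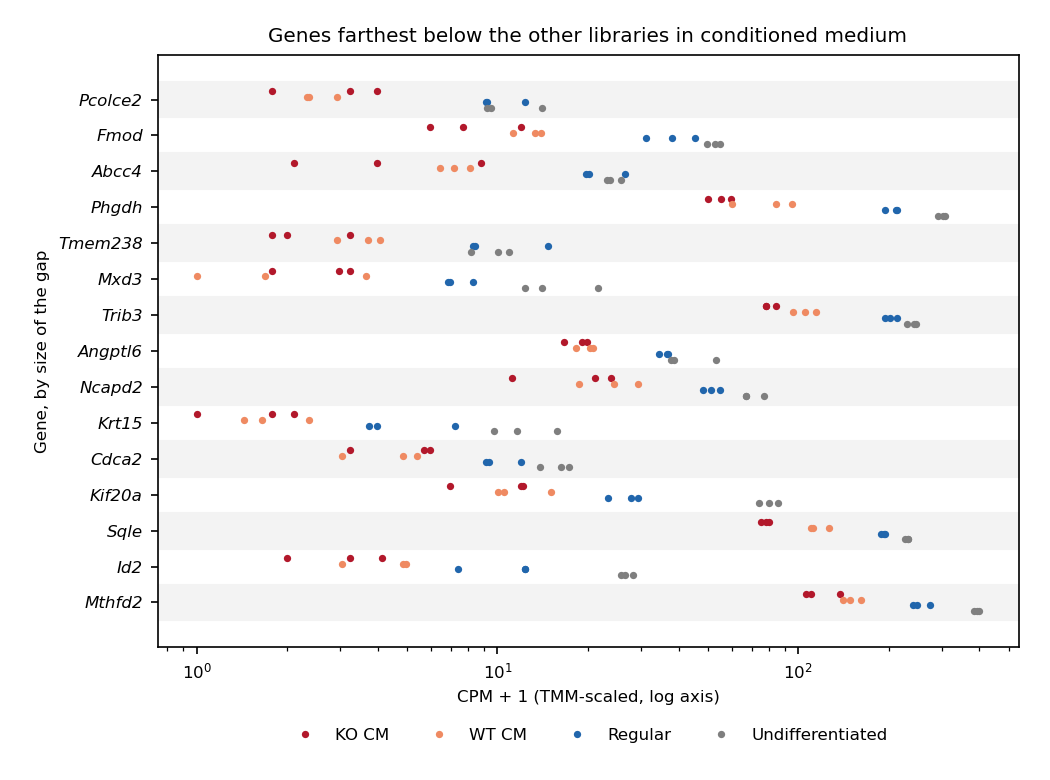
Levels of the 15 genes with the largest gaps below, 1 row per gene, as CPM plus 1 on a log axis, with 3 points per group for KO CM, WT CM, regular and undifferentiated libraries. Several genes are at a few CPM, where single counts move a point, while Phgdh, Trib3, Sqle and Mthfd2 stand at 49.0 CPM or more in every library.

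Serine synthesis and the amino acid response made up the list with the largest share below. It had 10 of 24 genes below (41.7%, against 2.56% of all genes) and none above. Phgdh, the first enzyme of serine synthesis (chromosome 3, 98313170 to 98339990, minus strand), was at 54.5, 48.99 and 58.8 CPM with KO CM and 83.2, 59.2 and 94.3 CPM with WT CM, against 212, 193 and 209.9 CPM after regular differentiation and 301, 306 and 291 CPM in undifferentiated cells. No groups overlapped, though the lowest WT CM library was close to the highest KO CM library. Mthfd2, a mitochondrial folate enzyme that carries the one-carbon unit of serine, was at 137, 109 and 105 CPM with KO CM and 160.2, 140.3 and 148 CPM with WT CM, against 272, 239 and 246 CPM after regular differentiation and 382, 399 and 393 CPM in undifferentiated cells. Trib3, a pseudokinase induced by ATF4, was at 77.3, 76.8 and 83.2 CPM with KO CM and 113, 95.3 and 104 CPM with WT CM, against 211, 201 and 194 CPM after regular differentiation and 229, 246 and 241 CPM in undifferentiated cells. Slc7a5, which imports large neutral amino acids, stood at 35.6 to 66.98 CPM over the 6 CM libraries, against 91.8 to 237 CPM over the 6 others. Psph, the last enzyme of serine synthesis, stood at 65.1 to 92.98 CPM over the 6 CM libraries, against 113 to 242 CPM over the 6 others. Ddit3 and Asns, both targets of ATF4, were just below the others. Asns was at 303 to 333 CPM over the 6 CM libraries, against 369 to 708 CPM over the 6 others.

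Cell cycle genes were members in 11 of 35 cases, all below (31.4%, against 2.56% of all genes). Cdc20, which activates the anaphase-promoting complex, was at 5.94, 5.57 and 7.85 CPM with KO CM and 10.2, 12.9 and 11.5 CPM with WT CM, against 24.7, 18.7 and 23.9 CPM after regular differentiation and 54.5, 70.8 and 51.4 CPM in undifferentiated cells. Regular cells already had less than undifferentiated cells, and CM libraries less again. Ube2c, a ubiquitin carrier of that complex, was at 23.8 to 48.5 CPM over the 6 CM libraries, against 63.2 to 240.2 CPM over the 6 others. Ccne1, the cyclin of S phase entry, was at 10.02 to 18.9 CPM over the 6 CM libraries, against 24.6 to 42.5 CPM over the 6 others, and Mcm7, a subunit of the replicative helicase, at 21.2 to 46.99 CPM over the 6 CM libraries, against 58.1 to 83.98 CPM over the 6 others. Off the list, the mitotic kinesin gene Kif20a was at 5.94 to 14.1 CPM over the 6 CM libraries, against 22.2 to 84.3 CPM over the 6 others, the condensin gene Ncapd2 at 10.2 to 28.3 CPM over the 6 CM libraries, against 47.2 to 75.8 CPM over the 6 others, and Cdca2, which targets a phosphatase to mitotic chromatin, at 2.04 to 4.95 CPM over the 6 CM libraries, against 8.19 to 16.3 CPM over the 6 others.

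Sterol genes had 4 members below of 22 (18.2%, against 2.56% of all genes), and 7 with total counts. Sqle, the oxygenase that commits squalene to sterols, was at 74.3, 79.1 and 76.9 CPM with KO CM and 111, 109 and 125 CPM with WT CM, against 192, 193 and 187 CPM after regular differentiation and 229.8, 231 and 226 CPM in undifferentiated cells. The 4 groups kept apart, with the lowest levels with KO CM. Mvd, Fdps and Mvk, enzymes of the mevalonate pathway, were nearer to the range, and Fdps stood at 175 to 452 CPM over the 6 CM libraries, against 479 to 696 CPM over the 6 others. Proteasome subunits had 7 members below of 24 (29.2%). They were led by the catalytic subunit gene Psmb5 (86.8 to 128 CPM over the 6 CM libraries, against 165 to 224 CPM over the 6 others). Among antioxidant genes 3 of 25 lay below (12%). They were the glutathione transferase gene Gsta4 (44.7 to 69.4 CPM over the 6 CM libraries, against 96.4 to 115 CPM over the 6 others) and both subunit genes of the rate-limiting enzyme of glutathione synthesis, Gclc (11.6 to 16.4 CPM over the 6 CM libraries, against 21.6 to 28.8 CPM over the 6 others) and Gclm. Id1 and Id2, inhibitors of basic helix-loop-helix factors that BMP signals induce, both lay below, Id1 at 138, 138 and 140.4 CPM with KO CM and 200.4, 179.6 and 186 CPM with WT CM, against 324, 393 and 357 CPM after regular differentiation and 245, 307 and 319.7 CPM in undifferentiated cells and Id2 at 0.991 to 3.97 CPM over the 6 CM libraries, against 6.40 to 27.2 CPM over the 6 others.

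None of 29 adipocyte markers, 31 oxidative phosphorylation genes or 22 genes of fatty acid oxidation lay outside in either direction, against 5.43% above and 2.56% below over all genes. The median log2 ratio of adipocyte markers was -1.16 against regular and 4.62 against undifferentiated cells, so CM libraries stood between. The same ratios were -0.80 and 0.47 for oxidative phosphorylation and -0.75 and 0.84 for fatty acid oxidation. None of 26 ribosomal protein genes and none of 24 p53 target genes was a member. With total counts 1 oxidative phosphorylation gene lay below.

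**Figure D4:**
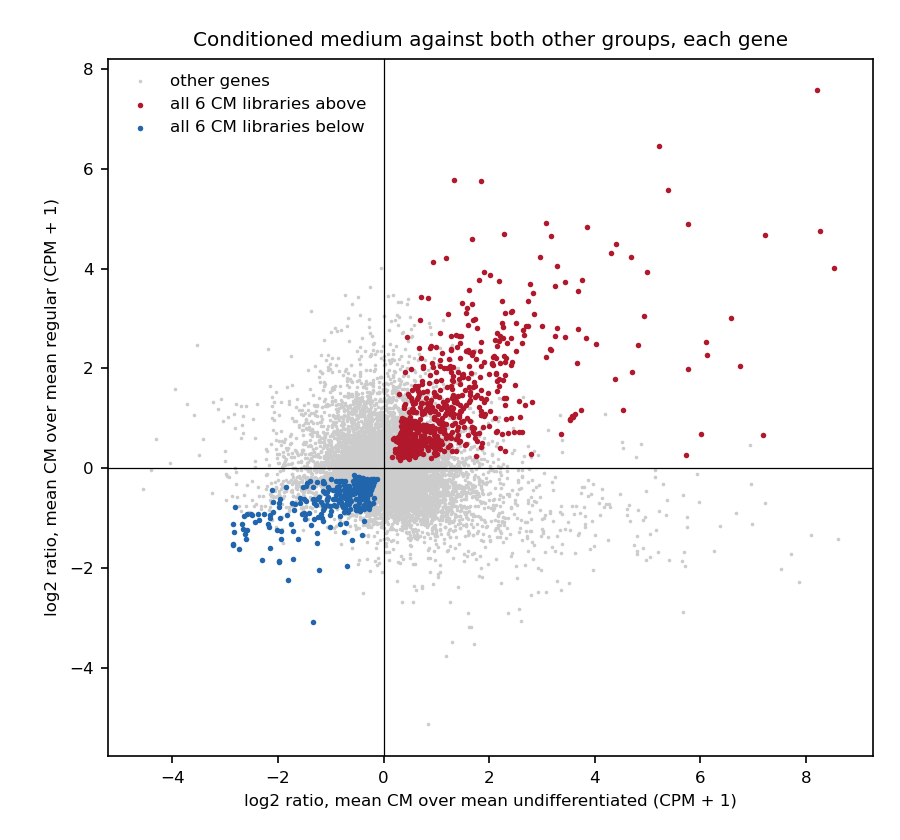
Each point is a gene, placed by the log2 ratio of the mean CM level to the mean undifferentiated level (x) and to the mean regular level (y), each plus 1 CPM. The 599 members above lie in the upper right and the 282 below in the lower left by construction, while other genes fill the quadrants where CM libraries stand between the ordinary states, such as the adipocyte markers at lower right (medians 4.62 and -1.16).

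The rule did not use the direction of the step from undifferentiated to regular cells, but the same libraries set its range. Shares called among members thus depend partly on the choice. That step was tested with edgeR over 9378 genes that passed a filter on low counts. They held 573 of the members above and 279 of those below (6.11% and 2.98% of the genes tested). Members that passed only because they were high in CM cells are among them, so these counts describe the genes tested, not all members. Of the 573 genes above, 137 were higher (23.9%) and 147 lower (25.7%) in regular than in undifferentiated cells at an adjusted p under 0.05, against 29.6% and 28.0% of all genes tested (57.6% in either direction). Some of these genes were near 0 in both ordinary states, and the rule favours genes whose ordinary states lie close together. The part of either in these shares was not tested. Of the 492 members above that passed the filter on the regular and undifferentiated libraries alone, 132 were higher (26.8%) and 135 lower (27.4%) in a fit of those libraries, against 31.2% and 29.7% of the 9071 genes tested there. In the fit of all libraries with total counts, 98 members above were higher and 188 lower, against 2253 higher and 3332 lower over all genes. Hp, Lcn2 and Serpina3n were among those that regular differentiation raised. The log2 fold change of Hp was 4.62 ± 0.17, edgeR adjusted p = 2.55e-13. Spp1, Osmr and Mgp were among those that it lowered, and CM libraries passed the undifferentiated level nonetheless. Tnn was called lower too, but it was at a few CPM in both ordinary states. Its place among the genes tested may rest on its CM level. For Spp1 it was -3.94 ± 0.09, edgeR adjusted p = 4.26e-35. Socs3 and Pdgfra, whose ordinary levels were well above 0, missed the threshold, while Saa3, Il33 and Tnfsf11 did not pass the filter on these libraries alone. For Socs3 it was -0.29 ± 0.19, edgeR adjusted p = 0.207.

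Of the 279 genes below, 25 were higher (8.96%) and 109 lower (39.1%) in regular than in undifferentiated cells, against 29.6% and 28.0% of all genes tested. With total counts 14 were higher and 142 lower, against 2253 and 3332 of all genes. Rdh5 and Id1 were among the 25, and Phgdh, Trib3, Fmod and Kif20a among the 109. Kif20a had a log2 fold change of -1.64 ± 0.17, edgeR adjusted p = 1.61e-11. The 25 became 14 without regular replicate 2 and 15 without undifferentiated replicate 1. The rule favours genes whose ordinary states lie close together, since a wide spread between them is harder to leave.

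The direction of the difference between the cancer media was likewise not used by the rule, though the CM libraries were. This difference was tested in the same fit. It sets apart media of cancer cells that differ in p53. Of the 573 tested genes above, 167 were higher (29.1%) and 8 lower (1.40%) with KO CM, against 5.86% and 6.62% of all 9378 genes (12.5% in either direction). With total counts the same genes gave 132 higher and 10 lower, where all genes gave 356 higher and 818 lower. Their median log2 fold change was 0.23, against 0.01 for all genes, and 490 of the 573 had a positive sign against 4763 of 9378. Of the 279 genes below, 25 were lower (8.96%) and 2 higher (0.717%; Cited2 and Ttyh3) with KO CM, with a median of -0.15. The share lower is near the 6.62% of all genes, and it varied with single libraries and tools: 14 genes were called without KO CM replicate 3, 16 without WT CM replicate 1 and 12 by DESeq2, while total counts called 42. In a fit of the CM libraries alone, 244 members below passed the filter and 17 were lower (6.97%), against 6.11% of all genes there. In that fit 569 members above passed the filter, and 154 were higher (27.1%) and 7 lower (1.23%). Of all 8539 genes there, 4.98% were higher. Adipocyte markers differed between the media too, at 8341 to 9491 CPM with KO CM and 16430 to 17040 CPM with WT CM, and their part in these counts was not tested. The same 6 CM libraries enter this test and the rule, and both media were set against the same 6 others.

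Saa3 had the lowest p of all members between the media, at 859 ± 70.3 CPM with KO CM and 92.9 ± 12.7 CPM with WT CM (SD, n = 3 libraries each; log2 fold change 3.22 ± 0.11, edgeR adjusted p = 1.14e-25). Lcn2 averaged 1221 ± 303 CPM with KO CM and 427 ± 10.8 CPM with WT CM, a log2 difference of 1.51 ± 0.11 (adjusted p = 4.8e-11) by edgeR. Its 3 KO CM libraries were spread widely, yet none reached down to WT CM. Mgp, a matrix protein that prevents calcification, averaged 931 ± 58.1 CPM with KO CM and 485 ± 34.9 CPM with WT CM, a log2 difference of 0.94 ± 0.08 (adjusted p = 2.05e-11) by edgeR. Clu, C1s1 and Cxcl12 were higher by 0.86 ± 0.09 (adjusted p = 1.08e-09), 0.82 ± 0.10 (adjusted p = 7.46e-08) and 0.74 ± 0.08 (adjusted p = 1.32e-09) on the log2 scale in edgeR. Serpina3h was higher by 1.70 ± 0.19 (adjusted p = 4.38e-09) and Fth1 by 0.54 ± 0.06 (adjusted p = 2.24e-08). All 8 were higher in every KO CM library than in any WT CM library. They were picked for the lowest p among members called higher, so this separation describes the choice. The share of all genes so separated is not given here.

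Not all members above were farther out with KO CM. Serpina3n, the gene with the largest gap, averaged 1772 ± 109.8 CPM with KO CM and 1574 ± 119 CPM with WT CM, and the edgeR difference of 0.17 ± 0.09 (adjusted p = 0.262) missed the threshold. Hp missed it more narrowly at 0.36 ± 0.12 (adjusted p = 0.0569) in edgeR. The 8 members above that were lower with KO CM included Itih4, of the inter-alpha-trypsin inhibitor heavy chains, at 45.7 ± 1.28 CPM with KO CM and 82.1 ± 10.9 CPM with WT CM, an edgeR log2 fold change of -0.84 ± 0.16 (adjusted p = 0.000163). Its KO CM libraries stood only just above the regular ones. The others with the lowest p were H2-K1, an MHC class I chain at -0.42 ± 0.08 (adjusted p = 0.00037), Fosl1, an AP-1 subunit at -0.66 ± 0.14 (adjusted p = 0.000747), and the ubiquitin-like modifier gene Ubd at -0.58 ± 0.13 (adjusted p = 0.00184), all from edgeR. Steap4, a metalloreductase, was close to the threshold at -0.46 ± 0.16 (adjusted p = 0.048) in edgeR. Itih4 and H2-K1 no longer lay above with total counts. The number called lower was 4 by DESeq2 and 5 without KO CM replicate 3.

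Among members below, Sqle was lower with KO CM, with an edgeR log2 fold change of -0.59 ± 0.11 (adjusted p = 0.000155), as were Mvd at -0.71 ± 0.15 (adjusted p = 0.00078), Tubb4b, a tubulin chain, at -0.47 ± 0.11 (adjusted p = 0.00242) and Id1 at -0.44 ± 0.11 (adjusted p = 0.00308). Id1 averaged 139 ± 1.48 CPM with KO CM and 189 ± 10.7 CPM with WT CM. Phgdh was lower at -0.55 ± 0.14 (adjusted p = 0.00561), and Slc7a5 at -0.62 ± 0.15 (adjusted p = 0.00402), both from edgeR. The cell cycle genes Cdc20 at -0.80 ± 0.35 (adjusted p = 0.135) and Ube2c at -0.44 ± 0.18 (adjusted p = 0.105) did not pass edgeR's threshold.

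Whole lists, members and others together, gave counts that stand against 5.86% higher and 6.62% lower over all genes tested between the media. Of 20 acute phase genes tested, 10 were higher and 3 lower with KO CM, and of 23 genes of the interleukin-6 family list 9 were higher and 2 lower. Complement had 4 higher and 1 lower of 13. Fibrillar matrix had 10 higher and none lower of 22, while basement membrane, which also had 9 members above, had 2 higher and 1 lower of 15. Among lists with members below, cholesterol synthesis had 12 lower and none higher of 22, the amino acid list 8 lower and 1 higher of 23, and cell cycle 6 lower and 1 higher of 31. Lists without members differed as well: 23 of 27 adipocyte markers and 22 of 30 oxidative phosphorylation genes were lower with KO CM and none higher. For p53 targets it was 1 lower and none higher of 22.

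**Figure D5:**
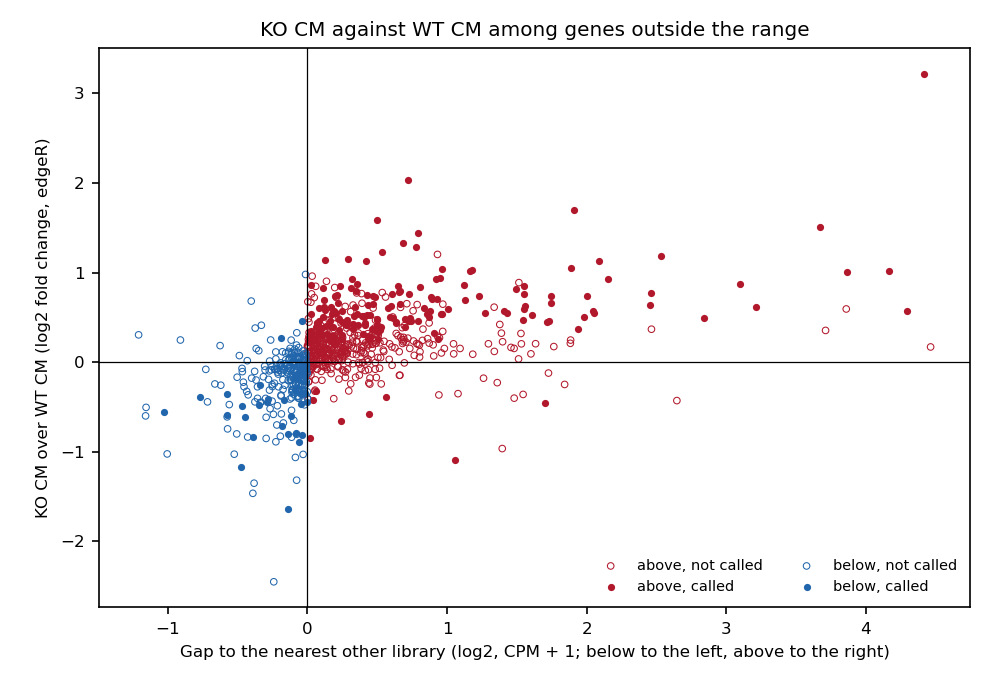
KO CM over WT CM (log2 fold change, edgeR) against the gap to the nearest other library (log2, CPM plus 1; genes below at left, above at right) for the 852 members tested, with filled points for an adjusted p under 0.05. Of the 573 genes above, 167 are filled over the zero line and 8 under it, with Saa3 at 3.22 in the far upper right, and of the 279 below 25 are filled under it and 2 over it.

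Some members were neighbours, which is given as a description with no share for other genes beside it. Among members above, 54 runs of genes whose starts lay within 100 kb of the next held 128 genes, and among those below 20 runs held 41. The Serpina3 run of 6 and the C1r and C1s run of 5 were the longest, followed on chromosome 17 by a run of 4 with Tnfsf9 and C3. Runs of 3 included Rtl8a, Rtl8b and Rtl8c on chromosome X, which are near-identical copies, and Fosl1, Fibp and Efemp2 on chromosome 19. Adjacent genes can share 3′ reads where annotations overlap, and the sources used here do not say if counting was stranded.

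At the edge of the rule, among genes with a mean of at least 10 CPM, the members nearest to the others from above were Lipa (92.02 CPM in the lowest CM library, against 91.99 CPM in the highest other), Pdcd6ip and Matn2. Uaca (18.40 and 18.42 CPM), Casp8 and Stoml1 just missed it. From below, Myh10 (57.29 CPM in the highest CM library, against 57.31 CPM in the lowest other), Lyar and Wars were just inside, and Nup88, Dtymk and Polr2g just outside. Such genes differ from their neighbours in the ranking by less than the spread between libraries.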

How the data were processed

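RNA from 12 libraries of 3T3-L1 cells was barcoded from 30 ng per sample and sequenced as MARS-seq libraries, per the labels' protocols, a method that reads 3′ ends and counts molecular identifiers. The values used are UMI counts of each gene in each library, which the authors deposited as raw counts, per the file headers. Per the submitters' processing notes, cutadapt, HTSeq and DESeq2 were used with the build mm10, and the sources used here name no aligner or annotation. Another 24 per-sample columns of normalized and transformed values were not used here. Every gene in the table had at least 6 counts in its highest library, and no mitochondrially encoded transcript was in it.

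Genes were kept for testing by filterByExpr in edgeR 4.0.16 (R 4.3.3) with the 4 groups, which left 9378, and libraries were scaled by TMM. The rule of membership was applied to all 11022 genes on the resulting CPM. Of the members, 26 above and 3 below did not pass the filter. Regular was compared with undifferentiated and KO CM with WT CM by edgeR's robust quasi-likelihood test in 1 fit over all 12 libraries, with Benjamini-Hochberg adjustment over all genes tested and a threshold of 0.05. The standard error was derived from the F statistic. Contrasts of CM with the other groups were not tested, because the rule used them. Folds are ratios of group means in CPM. Values with ± are the SD of 3 libraries, and log2 fold changes with ± are the SE. Intervals and floors cover counting error only. The script was tested on simulated data. Alternatives were total counts, DESeq2 1.42.0 or its size factors, no filter, thinning to 987496 UMIs per library, a margin, each medium alone, only the groups compared, a replicate block and leaving out each library. Genes were placed on GRCm38 by GENCODE M21 symbols, which matched 592 members above and 279 below, and promoters came from RefSeq. Members, gene lists and motifs were chosen with earlier results of these data known. Named are the 15 largest gaps in each direction, up to 4 members per list and direction with the largest gaps, the 8 members with the lowest p called in each direction between the media, and the 3 genes nearest to each side of the edge. Outside this rule and chosen after their values were seen were Cp, Slc39a14, C3, Stat3, Il6st, Il1r1, Psph, Asns, Ddit3, Rdh5, Cited2, Ttyh3 and the genes named for their position beside other members.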

Additional observations from a re-analysis of the deposited data

How the results depend on the processing

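Among genes above (599), a margin of at least 1.5-fold between the lowest CM and the highest other level left 182, and the KO CM libraries alone gave 1145. Among genes below (282), total counts gave 513, the margin 18, the WT CM libraries alone 452 and the KO CM libraries alone 651. A medium taken alone can only add genes, by construction, as can leaving out a library, which gave 627 to 725 above and 303 to 358 below. Thinning to equal totals gave 499 and 242. Of 132 genes named by rule, 10 no longer met the rule with total counts, 9 when thinned and 3 with DESeq2 size factors, and none changed sides.

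Between KO CM and WT CM, members above called higher (167) numbered 132 to 172 under the other settings and 130 to 152 without 1 library each. Those called lower (8) were 4 by DESeq2, and 5 to 7 without 1 library. Members below called lower (25) were 12 by DESeq2 and 42 with total counts, and 14 to 24 without 1 library. Those called higher (2) were 1 by DESeq2, when thinned, with only these groups fitted and with total counts, and 1 to 3 without 1 library. Over all genes, total counts called 356 higher in place of 550, and 379 to 559 were lower without 1 library, in place of 621, the 379 without KO CM replicate 3. The 16 members named from this comparison kept their direction and stayed past the threshold under each alternative run. Between regular and undifferentiated cells, members below called higher (25) were 14 with total counts and 14 to 25 without 1 library. The cause of these shifts was not tested.

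Libraries with the same replicate number did not deviate together (correlations of -0.07 to 0.06), so no pairing by number was seen. Such correlations cannot tell whether libraries shared a culture batch, since counting noise lowers them. With a replicate block, 172 members above were higher and 7 lower with KO CM, 24 members below were lower and 2 higher, and 580 of all genes were higher and 637 lower. Depth limits the rarest members, since a count of 0 over the 3 libraries of a group allows up to 0.94 CPM with KO CM and 0.56 CPM in regular cells, for counting error only.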
